A study of Mus musculus with 8 samples.

Results

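The opioid gene family was followed in sorted amygdalar intercalated cells of the mouse embryo, in 8 RNA-seq libraries of 2 genotypes. The 8 members were taken by gene symbol from the deposited gene tables: the receptors Oprm1, Oprd1, Oprk1 and Oprl1 and the peptide precursors Penk, Pdyn, Pnoc and Pomc. They are 8 of 32543 genes in the tables. Knockout libraries (n = 4) came from Tshz1GFP/RA embryos and control libraries (n = 4) from Tshz1GFP/+ embryos, all at E16.5 and on an outbred background. Both genotypes thus carry a GFP allele of Tshz1, a zinc finger transcription factor, and the sort took the GFP-expressing cells of the dissected ventrolateral caudal telencephalon. Each library is a pool of embryos of 1 genotype, and the labels give neither the number of embryos nor whether pools came from separate litters, so each p-value below reflects how pools vary. It is not stated what the RA allele lacks or whether the GFP allele leaves Tshz1 intact. Titles begin with NX, NY, QT or RM, each shared by 1 knockout and 1 control library, and the meaning of these prefixes is unknown.

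Opioid peptides are cut from larger precursor proteins at pairs of basic residues. Penk gives the enkephalins, Pdyn the dynorphins, Pomc beta-endorphin together with corticotropin and melanotropins, and Pnoc nociceptin. They act on the mu (Oprm1), delta (Oprd1), kappa (Oprk1) and nociceptin (Oprl1) receptors, which couple to inhibitory Gi/o proteins, lower cyclic AMP and open inwardly rectifying potassium channels. In the adult amygdala, intercalated cells are GABAergic neurons known for dense mu receptor expression.

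What the precursors share can be read in their coding sequence. The stretches printed here hold the codons of the opioid core, Tyr-Gly-Gly-Phe (Phe-Gly-Gly-Phe in Pnoc), in capitals, with 6 bases before and 9 bases after, taken from GENCODE M21 transcripts on GRCm38. They are shown because these repeats define the family and set how many opioid peptides 1 precursor holds.
Penk, first copy, chr4:4134328-4134354, minus strand: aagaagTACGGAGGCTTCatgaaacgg
Penk, sixth copy, chr4:4133935-4133961, minus strand: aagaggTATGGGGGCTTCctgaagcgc
Pdyn, first copy, chr2:129688232-129688258, minus strand: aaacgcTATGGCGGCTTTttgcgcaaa
Pomc, single copy, chr12:3960367-3960393, plus strand: aagcgtTACGGTGGCTTCatgacctcc
Pnoc, single copy, chr14:65404872-65404898, minus strand: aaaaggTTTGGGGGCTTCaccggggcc
The Penk coding sequence (267 codons) held the core 7 times in frame, 6 times followed by a methionine codon and 1 time by a leucine codon, as in Met- and Leu-enkephalin. Pdyn (247 codons) held it 3 times, each before a leucine codon, and Pomc (234 codons) 1 time. Pnoc (211 codons) held the core with phenylalanine in first place 1 time. Every copy in the 4 precursors followed a pair of codons for basic residues. Despite the shared core, no run of 31 bases in the annotated transcripts was common to any pair of the 8 members. Oprm1 shared 71 such runs with Ipcef1, whose exons overlap it on the other strand. Penk shared 174 of its 1600 runs with A830012C17Rik, which overlaps it on the other strand and was not analysed here. The labelled kit does not mark strand, so fragments from these overlaps cannot be told apart. The expected counts of Penk were whole in 8 of 8 libraries within 0.005. The overlaps were read in GENCODE M21, while the deposited files use UCSC known genes, so how that gene set treats them was not examined.

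Library totals ran from 6384571 to 13295690 expected counts in knockout and from 5785612 to 14535867 in control libraries. CPM values are counts scaled by library total and TMM composition factors, and 3 counts, used as the floor of detection, equalled 0.186 to 0.545 CPM. Tshz1 stood at 55.9 to 121 CPM in knockout and 240.0 to 492 CPM in control libraries, with no overlap. The GABAergic markers summed to 673 to 1182 TPM in knockout and 847 to 1510 TPM in control libraries. The intercalated cell markers without Tshz1 (Foxp2, Meis2, Pax6, Erbb4 and Drd1) summed to 472 to 981 TPM in knockout and 761 to 1582 TPM in control libraries. Meis2 alone stood at 380 to 728 TPM in knockout and 581 to 1051 TPM in control libraries. Markers of other cells were present too. Radial glia and astrocyte genes summed to 376 to 1522 TPM in knockout and 87.3 to 1525 TPM in control libraries, with control NX lowest. Fabp7 alone stood at 342 to 1483 TPM in knockout and 79.5 to 1475 TPM in control libraries. Pallial glutamatergic markers summed to 152 to 410 TPM in knockout and 32.4 to 270 TPM in control libraries. Interneuron markers summed to 119 to 337 and 159 to 428 TPM in the same order. Proliferation markers summed to 141 to 481 and 131 to 305 TPM, and blood markers to 1.04 to 583 and 3.14 to 1122 TPM.

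Levels of different genes were compared in TPM, which is scaled to transcript length. Penk and Oprl1 were the most abundant members in both genotypes. Penk averaged 36.0 ± 35.5 TPM in knockout and 45.7 ± 40.1 TPM in control libraries (SD, n = 4 each), and Oprl1 averaged 18.7 ± 14.6 TPM in knockout and 28.2 ± 15.6 TPM in control libraries. The other 6 members averaged between 0.163 and 3.17 TPM in knockout and between 0.25 and 5.67 TPM in control libraries. Penk made up 83.1% to 95.4% of the summed precursor TPM in knockout and 85.9% to 98.6% in control libraries. Oprl1 made up 59.2% to 92.5% of the summed receptor TPM in knockout and 63.9% to 85.6% in control libraries, so the nociceptin receptor, not the mu receptor, was the leading receptor transcript in every library.

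**Figure D1:**
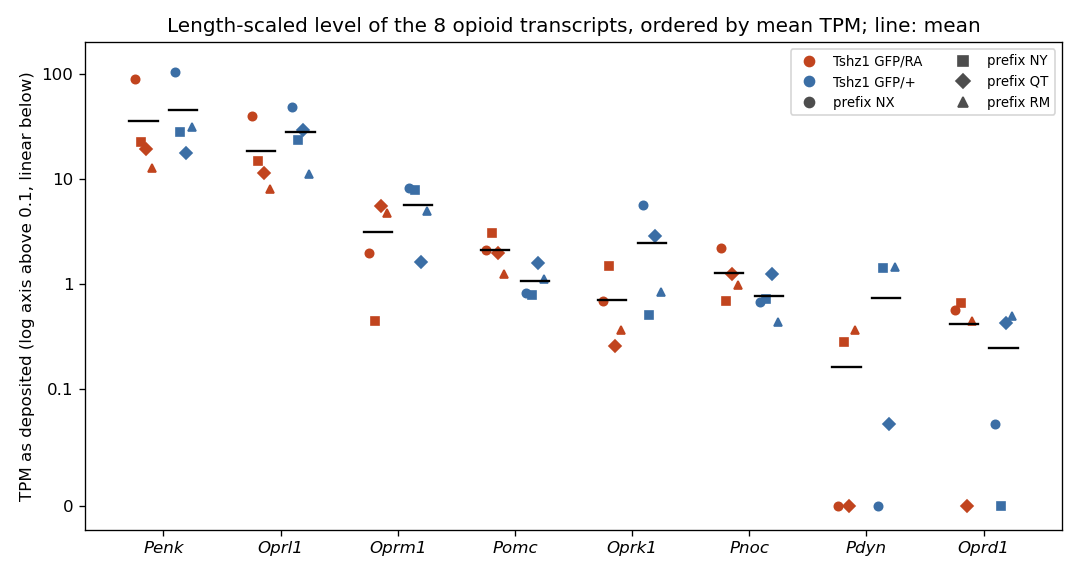
Deposited TPM of the 8 members in each library, knockout (red) left of control (blue), on a log axis that turns linear below 0.1, with the genotype mean as a line. Penk and Oprl1 lie above the other members in all 8 libraries, and Pdyn and Oprd1 reach 0 in some.

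The order of the other members was loose. Oprl1 exceeded Oprm1 in all 8 libraries, and within each genotype their ranges did not overlap. Penk exceeded Oprl1 in 7 of 8 libraries, control QT being the exception with 17.7 TPM of Penk and 29.3 TPM of Oprl1. All other neighbours in the order overlapped in both genotypes. In knockout libraries Oprm1 was followed by Pomc, Pnoc, Oprk1, Oprd1 and Pdyn, and in control libraries by Oprk1, Pomc, Pnoc, Pdyn and Oprd1. Oprk1 thus stood below Pomc and Pnoc in knockout means (0.703 TPM against 2.11 and 1.29 TPM) and above both in control means (2.48 TPM against 1.08 and 0.775 TPM). These places rest on overlapping values.

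No tested opioid gene passed the threshold between the genotypes. Of the 8 members, 6 passed the filter on low counts and 0 were called by edgeR's quasi-likelihood test at an adjusted p under 0.05, where 0.0353% of the 14157 tested genes were called, 0.00706% higher and 0.0283% lower in the knockout. At an unadjusted p under 0.05 the count was also 0 of 6 in the main edgeR fit and in limma-voom and 1 of 6 (Oprk1) in DESeq2, which called 0 after adjustment. In the main edgeR fit 3.62% of all tested genes passed that level. Some other edgeR settings also put Oprk1 below it, as given below. Fitted values were lower in the knockout for 4 of 6 members, against 50.6% of all tested genes, and the median log2 fold change was -0.37, against -0.0053 over all tested genes. The median size of the log2 fold change, whatever its sign, was 0.68 for the members and 0.26 over all tested genes. These sizes were not compared at equal expression level, and the SEs of Oprm1, Oprd1, Oprk1 and Pnoc were 0.67 to 1.16. In these bulk libraries, fewer cells that express a gene and less RNA per cell cannot be told apart.

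**Figure D2:**
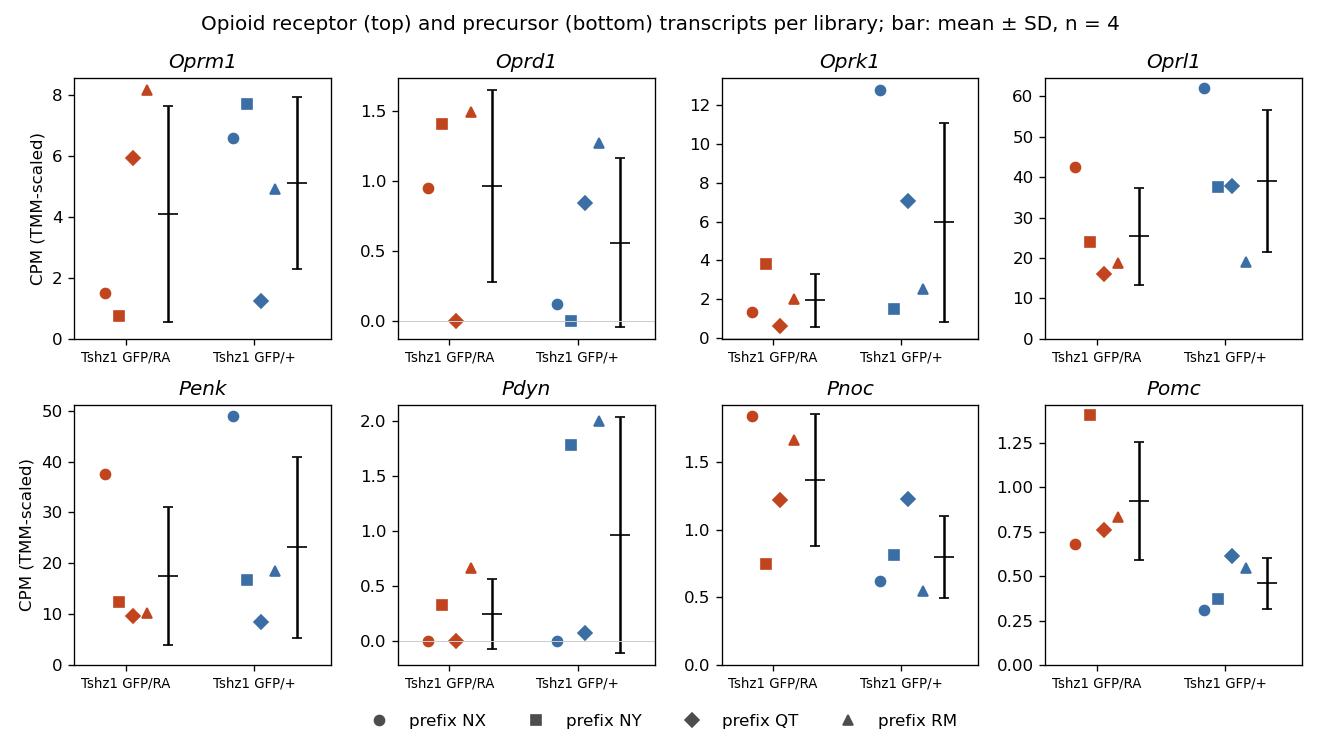
CPM of each member by library, Tshz1GFP/RA left of Tshz1GFP/+, with symbols for the title prefix and bars for the mean ± SD (n = 4 per genotype). The genotypes overlap for every member but Pomc, and each panel has its own axis.

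Oprm1, the mu receptor and the member best known in these neurons, varied widely within both genotypes. It had 1.50 (NX), 0.745 (NY), 5.94 (QT) and 8.15 CPM (RM) in knockout libraries, against 6.57 (NX), 7.70 (NY), 1.22 (QT) and 4.91 CPM (RM) in control libraries. Both genotypes held high and low libraries, and the highest and the lowest of the 8, which differed 10.9-fold, were both knockout. Within prefixes the log2 CPM difference was -2.01 in NX, -3.09 in NY, 2.12 in QT and 0.71 in RM, so the direction split evenly. The log2 fold change was -0.35 (SE 0.76, 95% interval -1.99 to 1.29; edgeR adjusted p = 1.00), which as a ratio runs from 0.252 to 2.44 times the control level. Without the knockout NY library it was 0.0080, and without both NY libraries 0.28.

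RSEM weighted its many transcripts to an effective length of 1680 to 2844 bases in knockout and 1432 to 1698 bases in control libraries, with knockout NY longest. On the TPM scale, which differs from CPM in both length and library scaling, the knockout NY value was 0.45 TPM. The RM pair stood at 4.74 TPM in knockout and 4.93 TPM in control, while in CPM the knockout library was the higher one. The knockout library was the lower one for 2 of 4 prefixes in CPM and for 3 of 4 in TPM. Its expected counts were whole in 3 of 8 libraries within 0.005 and fractional in the other 5, as RSEM gives where it divides a fragment among genes. Ipcef1, the antisense neighbour, averaged 7.03 ± 5.13 CPM in knockout and 13.6 ± 8.66 CPM in control libraries (SD, n = 4 each). The part of shared fragments in the Oprm1 values was not tested.

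Oprk1, the kappa receptor, showed the lowest fitted fold change of the 6 members that passed the filter. It had 1.36 (NX), 3.81 (NY), 0.609 (QT) and 2.00 CPM (RM) in knockout libraries, against 12.8 (NX), 1.48 (NY), 7.04 (QT) and 2.54 CPM (RM) in control libraries. Control NX and QT stood above every knockout library, while control NY and RM lay inside the knockout range. The log2 fold change was -1.60 (SE 0.74, 95% interval -3.22 to 0.010), with an unadjusted p of 0.0512 and an adjusted p of 1.00 in edgeR. The unadjusted edgeR p of Oprk1 was 0.0482 with robust quasi-likelihood, 0.0376 without a filter and 0.0324 without composition factors. It was 0.00899 without both NY libraries, 0.127 with the prefix as a replicate block and 0.251 without control NX. The smallest adjusted p of Oprk1 over the alternatives was 0.743, in edgeR with the block. Within prefixes the difference was -3.07 in NX, -3.19 in QT and -0.32 in RM, and 1.26 in NY. The value leaned on the control NX library, without which it was -0.91. It was -0.76 without both NX libraries, -2.50 without both NY libraries and -0.63 without control NX and knockout QT, the last chosen after seeing the data. The control NX library also had the lowest radial glia sum, most of it Fabp7, and the highest intercalated cell sum given above, most of it Meis2. The part of cell makeup in this result was not tested.

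Oprl1, the nociceptin receptor, was the receptor measured with most counts, 106 to 626 in knockout and 105 to 1000 in control libraries. It had 42.6 (NX), 23.9 (NY), 16.1 (QT) and 18.8 CPM (RM) in knockout libraries, against 62.0 (NX), 37.5 (NY), 37.7 (QT) and 19.1 CPM (RM) in control libraries. The knockout library was the lower of each prefix, by 0.54, 0.65, 1.22 and 0.02 on the log2 CPM scale in NX, NY, QT and RM, but the genotypes overlapped. The NX libraries were the highest of their genotype. The log2 fold change was -0.62 (SE 0.38, 95% interval -1.44 to 0.20), with an unadjusted p of 0.125 and an adjusted p of 1.00 in edgeR. Without the knockout NX library it was -0.999 and without control NX -0.31. It was -0.15 without control NX and knockout QT. The summed intercalated cell markers without Tshz1, most of the sum being Meis2, were likewise lower in the knockout library of all 4 prefixes. The sums were highest in the NX library of each genotype, at 981 TPM in knockout and 1582 TPM in control. Foxp2, Meis2 and Erbb4 were each lower in the knockout library of all 4 prefixes. Pax6 was higher in knockout NY (26.2 against 12.8 TPM) and Drd1 in knockout QT (5.73 against 4.54 TPM). Whether marker level accounts for Oprl1 was not tested.

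Oprd1, the delta receptor, sat at the limit of detection. It had 14, 17, 0 and 9 counts in knockout libraries (NX, NY, QT, RM), against 2, 0, 11 and 7 counts in control libraries. Counts of 3 or fewer were found in 1 knockout and 2 control libraries. In the libraries with a count of 0, the floor of 3 counts equalled 0.457 CPM (knockout QT) and 0.222 CPM (control NY). The fit gave a log2 fold change of 0.90 (SE 1.16, 95% interval -1.62 to 3.43; edgeR adjusted p = 1.00). The lowest and highest knockout counts differed by more than Poisson counting error. The exact Poisson 95% interval was 0 to 3.69 for the count of 0 in knockout QT and 9.90 to 27.2 for the count of 17 in knockout NY. These intervals leave out error from amplification and were not scaled to library total, 6384571 in knockout QT and 12095658 in knockout NY.

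Penk, the enkephalin precursor and the most abundant member, was highest in the NX library of both genotypes. It had 37.7 (NX), 12.4 (NY), 9.74 (QT) and 10.15 CPM (RM) in knockout libraries, against 48.9 (NX), 16.7 (NY), 8.49 (QT) and 18.5 CPM (RM) in control libraries. Both NX libraries stood well above the other libraries of their genotype. The within-prefix log2 CPM difference was -0.38 in NX, -0.42 in NY, 0.19 in QT and -0.86 in RM. The log2 fold change was -0.40 (SE 0.55, 95% interval -1.59 to 0.80; edgeR adjusted p = 1.00). The direction reversed when control NX alone was left out (0.29), and it held without knockout NX (-1.10) and without both NX libraries (-0.42).

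**Figure D3:**
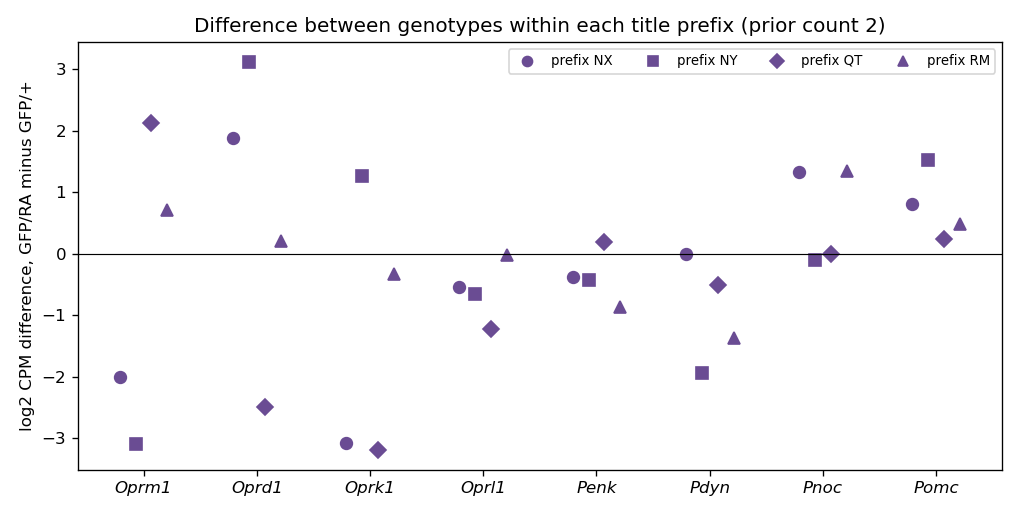
Difference in log2 CPM (prior count 2), Tshz1GFP/RA minus Tshz1GFP/+, within each title prefix for each member. The points of Oprl1 lie at or below 0 and those of Pomc above 0, while Oprm1, Oprd1 and Oprk1 have points more than 1 log2 unit from 0 on both sides.

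Pdyn, the dynorphin precursor, did not pass the filter on low counts. It had 0, 4, 0 and 4 counts in knockout libraries (NX, NY, QT, RM), against 0, 24, 1 and 11 counts in control libraries. Control NY and RM were thus the libraries with most Pdyn, at 1.78 and 2.00 CPM. Both NX libraries had none, where the floor of 3 counts equalled 0.204 CPM in knockout and 0.186 CPM in control. The exact two-sided permutation p was 0.400, and in a fit without the filter the log2 fold change was -1.93 (SE 1.51, 95% interval -5.08 to 1.23; edgeR adjusted p = 0.912). In the same control NY and RM libraries the 8 microglia markers summed to 115 and 102 TPM and the 6 vascular and meningeal markers to 16.9 and 7.04 TPM. The microglia markers spanned 18.9 to 74.3 TPM over the knockout libraries and 8.12 to 115 TPM over the control libraries. The vascular markers spanned 0.41 to 2.95 TPM over the knockout libraries and 0.03 to 16.9 TPM over the control libraries. The 9 striatal markers summed to 129 to 409 TPM in knockout and 157 to 278 TPM in control libraries. Bcl11b alone stood at 71.2 to 278 TPM in knockout and 80.3 to 193 TPM in control libraries. Tac1, another of them, had 1, 8, 6 and 15 counts in knockout libraries (NX, NY, QT, RM). In control libraries Tac1 had 0, 34, 4 and 44 counts, so control NY and RM were again highest. Isl1 and Ebf1, also of this list, were likewise highest in NY and RM among control libraries in TPM. Among knockout libraries, however, Isl1 and Ebf1 were highest in QT, where Pdyn had 0 counts. Bcl11b, Drd2, Adora2a and Rarb, by contrast, were lowest in RM among control libraries. Tac1, Isl1, Ebf1 and Rarb were named after their values were seen. The part of these cells in the Pdyn values was not tested.

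Pnoc, the nociceptin precursor, was low in all libraries. It had 1.84, 0.745, 1.22 and 1.66 CPM in knockout libraries (NX, NY, QT, RM), against 0.620, 0.814, 1.22 and 0.545 CPM in control libraries. The genotypes overlapped, with knockout NX and RM above every control library and 8 to 27 counts behind the knockout values and 3 to 16 behind the control values. Its log2 fold change was 0.74 (SE 0.67, 95% interval -0.71 to 2.19; edgeR adjusted p = 1.00). Its receptor gene Oprl1 was many times more abundant, at 18.7 against 1.29 TPM in knockout and 28.2 against 0.775 TPM in control means.

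Pomc, the precursor of beta-endorphin, was the single member whose genotypes did not overlap in CPM, at counts too low for the filter. It had 0.681, 1.41, 0.761 and 0.832 CPM in knockout libraries (NX, NY, QT, RM), against 0.310, 0.370, 0.612 and 0.545 CPM in control libraries. Behind these stood 10, 17, 5 and 5 counts in knockout and 5, 5, 8 and 3 counts in control libraries. The exact two-sided permutation p of log2 CPM was 0.0286, the lowest value possible with 4 libraries per genotype, and it was not adjusted over the 8 such tests, whose other p-values ran from 0.143 to 0.629. Genotypes that do not overlap were found for 2.59% of all tested genes. In TPM the genotypes overlapped, with 1.26 to 3.07 TPM in knockout and 0.79 to 1.59 TPM in control libraries, and the permutation p on log2(TPM + 1) was 0.0571. A fit without the filter gave a log2 fold change of 1.01 (SE 0.99, 95% interval -1.06 to 3.08; edgeR adjusted p = 0.912). Counting error alone is wide here: the exact Poisson 95% interval of the highest knockout count, 17, was 9.90 to 27.2, and that of the highest control count, 8, was 3.45 to 15.8. These intervals cover counting error only, since amplified fragments carry no molecular identifiers. The 6 hypothalamus and medial amygdala markers were at or near 0, with sums of 0 to 0.63 TPM in knockout and 0 to 0.45 TPM in control libraries, and Otp, Nkx2-4 and Hcrt were at 0 in every library.

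Genes that make, break down or relay opioid peptides were examined as 7 lists with 64 genes, of which 56 were tested. In edgeR 0 of 56 were called in either direction, against 0.0353% of all tested genes, and in each of the 24 alternatives, DESeq2 and limma-voom included, the count was again 0. At an unadjusted p under 0.05, 3 were higher and 3 lower in the knockout, against 3.62% of all tested genes in both directions. The genotypes did not overlap in CPM for 5 lower and 3 higher genes of the 56, against 2.59% of all tested genes. The median log2 fold change of the 56 was -0.11, against -0.0053 over all tested genes, and 32 were fitted lower and 24 higher.

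**Figure D4:**
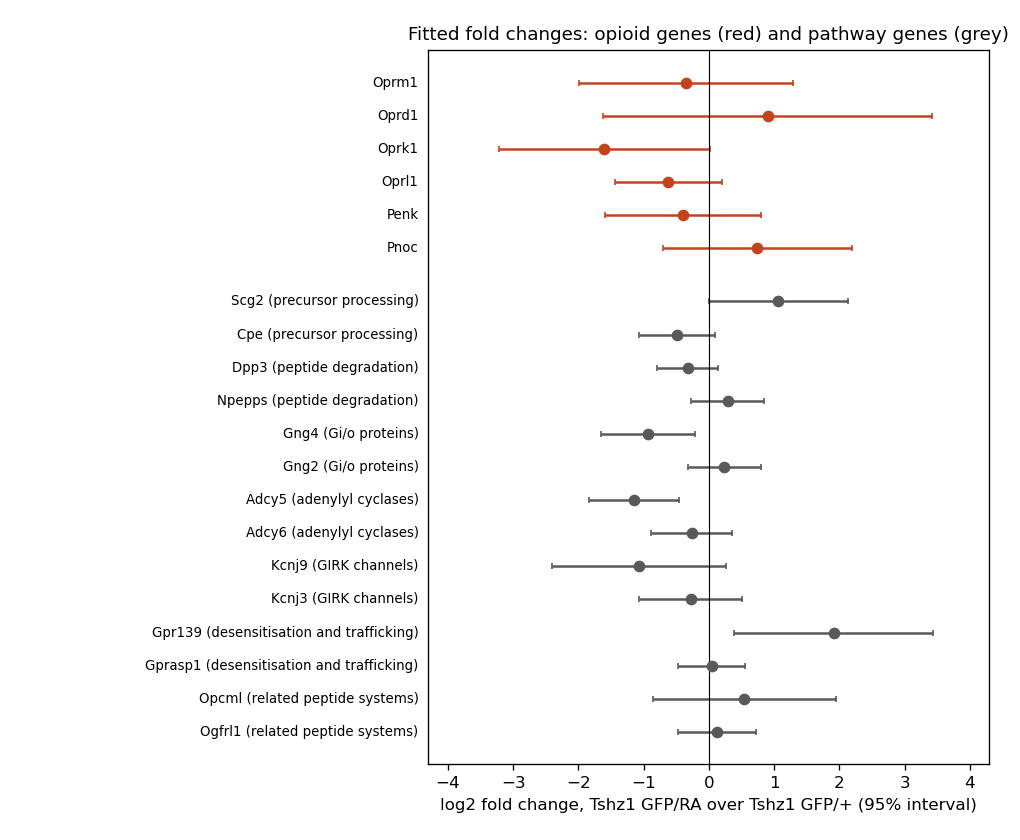
Log2 fold change, Tshz1GFP/RA over Tshz1GFP/+, with its 95% interval in edgeR's quasi-likelihood fit, for the 6 tested opioid genes (red) and 14 pathway genes (grey, list in brackets). No gene shown was called over all genes, and intervals that leave out 0 are not adjusted.

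The smallest p-value of the 56 tested pathway genes was that of an adenylyl cyclase. Adcy5, an enzyme inhibited by Gi and abundant in the striatum, had 7.42, 5.63, 8.37 and 7.15 CPM in knockout libraries (NX, NY, QT, RM), against 18.8, 10.9, 16.8 and 16.7 CPM in control libraries. The genotypes did not overlap, and the fitted value was a log2 fold change of -1.15 (SE 0.32, unadjusted p = 0.00349, adjusted p = 0.797 in edgeR). Of the 8 adenylyl cyclases, 6 were fitted lower and 2 higher. Adcy6, the most abundant of them in TPM, averaged 32.3 ± 10.6 CPM in knockout and 38.8 ± 10.3 CPM in control libraries (SD, n = 4 each).

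Among 13 genes of Gi/o proteins, 7 were fitted lower and 6 higher. Gng4, a G protein gamma subunit, had 18.6, 12.1, 11.9 and 20.8 CPM in knockout libraries (NX, NY, QT, RM), against 49.5, 24.0, 20.9 and 26.9 CPM in control libraries, with no overlap (log2 fold change -0.94, SE 0.33; edgeR adjusted p = 1.00). The knockout RM and control QT values nearly met, and in TPM the genotypes overlapped, with 7.73 to 15.3 TPM in knockout and 14.4 to 37.95 TPM in control libraries. Other genes of the list went the opposite way. Gnb4, a beta subunit, averaged 27.7 ± 5.20 CPM in knockout and 16.8 ± 3.40 CPM in control libraries without overlap (log2 fold change 0.72, SE 0.26; edgeR adjusted p = 1.00). Gnai3, an inhibitory alpha subunit, averaged 181 ± 27.5 CPM in knockout and 126 ± 32.6 CPM in control libraries without overlap (log2 fold change 0.52, SE 0.23; edgeR adjusted p = 1.00), but its TPM values overlapped. Gnaz, another alpha subunit of the family, had 11.4 to 18.1 CPM in knockout and 19.2 to 28.7 CPM in control libraries (log2 fold change -0.68, SE 0.27; edgeR adjusted p = 1.00). These 3 genes were named after their values were seen. Gng2, another gamma subunit, was the most abundant gene of the list, at 1048 ± 316 CPM in knockout and 889 ± 185 CPM in control libraries (SD, n = 4 each). Of 3 tested potassium channel genes, Kcnj9 (GIRK3) had 0.761 to 1.83 CPM in knockout and 1.92 to 3.63 CPM in control libraries, with a log2 fold change of -1.07 (SE 0.61; edgeR adjusted p = 1.00). Kcnj3 (GIRK1), the most abundant, averaged 39.9 ± 22.2 CPM in knockout and 48.5 ± 15.02 CPM in control libraries. Kcnj5 (GIRK4), named after its values were seen, failed the filter with 3, 14, 8 and 4 counts in knockout libraries against 0, 1, 0 and 0 counts in control libraries (NX, NY, QT, RM). Its genotypes did not overlap, with the knockout higher and an exact two-sided permutation p of 0.0286, the smallest possible and unadjusted.

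Gpr139, an orphan receptor that opposes mu receptor signalling in mice, was the pathway gene with the highest fitted fold change. It had 3.54, 1.57, 1.52 and 2.00 CPM in knockout libraries (NX, NY, QT, RM), against 0.434, 0.888, 0.689 and 0.182 CPM in control libraries, with no overlap. The fit put it at a log2 fold change of 1.92 with an SE of 0.70 (edgeR unadjusted p = 0.0179, adjusted p = 1.00). Within the same list of desensitisation and trafficking genes, 7 of 11 were fitted higher. Gprasp1, which sorts opioid receptors towards lysosomes, was the most abundant, at 313 ± 110 CPM in knockout and 304 ± 31.7 CPM in control libraries (SD, n = 4 each).

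Genes of peptide processing and breakdown spanned a wide range of levels. The convertase genes were low: Pcsk1 had 1 to 18 counts in knockout and 0 to 7 counts in control libraries and failed the filter, and Pcsk2 averaged 1.94 ± 1.19 TPM in knockout and 2.76 ± 1.65 TPM in control libraries (SD, n = 4 each). Mme (neprilysin), a main enkephalin-cleaving enzyme, averaged 0.848 ± 0.766 TPM in knockout and 1.56 ± 2.41 TPM in control libraries. Cpe, the carboxypeptidase that trims basic residues from cut peptides, averaged 113 ± 40.4 TPM in knockout and 158 ± 60.2 TPM in control libraries, with a log2 fold change of -0.49 (SE 0.27; edgeR adjusted p = 1.00). Scg2, a secretory granule protein, had 13.6 to 77.9 CPM in knockout and 12.4 to 23.4 CPM in control libraries, the knockout NX library being the highest (log2 fold change 1.07, SE 0.49; edgeR adjusted p = 1.00). Of 10 tested processing genes, 4 were fitted higher and 6 lower. Among 8 tested peptidase genes, 6 were fitted lower and 2 higher. Dpp3, a dipeptidyl peptidase that cleaves enkephalins, averaged 29.1 ± 4.79 CPM in knockout and 36.6 ± 2.40 CPM in control libraries. Its CPM values did not overlap but nearly met, at 34.2 in knockout NY and 34.6 in control NY, and in TPM they overlapped, with 10.6 to 29.0 TPM in knockout and 21.2 to 33.9 TPM in control libraries. Npepps, a cytosolic aminopeptidase, averaged 178 ± 31.6 CPM in knockout and 146 ± 48.8 CPM in control libraries. Of the related genes, 3 of 7 were tested, with Opcml at a log2 fold change of 0.54 (SE 0.65) and Ogfrl1 at 0.12 (SE 0.27).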

How the data were processed

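RNA of sorted intercalated cells was amplified (NuGEN Ovation) and made into Nextera XT libraries, per the labels' protocols. Trimmomatic 0.33, RSEM 1.2.22, Bowtie2 (its version is not given in the sources used here) and the mm10 build are named in the submitters' processing notes. The transcript IDs in the deposited files are UCSC known genes. Per the file headers, the deposited sample files hold RSEM expected counts, which need not be whole, and TPM values per gene; the 16 columns of the deposited matrices differed from them by 0.

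Expected counts were rounded and tested with edgeR 4.0.16 (R 4.3.3): filterByExpr, which kept 14157 of 32543 genes, TMM factors, and a quasi-likelihood test with genotype as single term. P-values were adjusted by Benjamini-Hochberg over all tested genes. For single members, exact permutation tests compared mean log2 CPM, computed with a prior count of 2, across the 70 ways to assign genotypes. Alternatives used DESeq2 1.42.0, limma 3.58.1 (voom, and log2 TPM with a pseudocount of 1 or 0.1), other filters and factors, and fewer libraries. The fit was tested on simulated data. The members, lists and naming rule were chosen with earlier results of these data known. Of each pathway list, the gene with the smallest p and that with the highest mean TPM are named. Positions and sequences are from GENCODE M21 (GRCm38). Depth is the total of expected counts per library.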

Additional observations from a re-analysis of the deposited data

Results flagged for a closer look

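Penk in the knockout NX library, at 37.7 CPM, lay far from the other knockout libraries (9.74 to 12.4 CPM): its gap to the nearest took up a share of 0.904 of the range. Control NX was likewise the highest control library, at 48.9 CPM, where the gap took up a share of 0.752 of the range, below the critical value. Chance marks about 1 in 20 groups of 4 libraries in this way, and each of the 8 opioid genes was examined in both genotypes.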

How the results depend on the processing

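The count of opioid genes called was 0 in all 24 alternatives, and so was that of pathway genes. Over all genes, 5 were called, against 9 without composition factors, 19 without a filter, 39 with DESeq2, 2 with limma-voom, 2 with robust quasi-likelihood, 10 with log2(TPM + 1), 11 at a threshold of 0.1 and 28 with the prefix as a replicate block. With 1 library left out the count was 0 to 5, and it was 3 without both NX libraries and 0 without both NY, both QT or both RM libraries or without control NX and knockout QT. The log2 fold changes of Oprd1, Oprk1, Oprl1 and Pnoc kept their direction in every alternative in which they were tested. Oprm1 (-0.35) reached 0.085 without both NX libraries and 0.28 without both NY libraries, and ran from -0.93 to 0.0080 with 1 library left out. In the other direction it was -0.995 with limma-voom and -1.05 with log2(TPM + 0.1), the lowest of its alternatives. Penk (-0.40) reached 0.48 without control NX and knockout QT, and ran from -1.10 to 0.29 with 1 library left out. The cause was not tested. The log2 CPM difference of Pomc was 0.77, and on log2(TPM + 1) it was 0.56 (exact permutation p = 0.0571). Same-prefix libraries deviated together in NX, NY and RM (correlations of 0.385, 0.303 and 0.450) but little in QT (0.0658). The meaning of the prefixes is unknown, so they were not pairs in the main fit and entered as a block only as an alternative. Under the block no member was called, and Oprl1 had an unadjusted p of 0.024 (edgeR adjusted p = 0.603). Oprd1, Pdyn, Pnoc and Pomc rest on 0 to 27 counts per library, so counting error is wide for each.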

Other observations

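For each tested member, the genes with the most similar profile were sought over the 8 libraries (log2 CPM, average log2 CPM of at least 1). These are descriptions over libraries that share depth and prefix. The 3 genes named for each member were picked as the closest of 12878 or 12879 genes, and no p was computed, so r is no test of co-expression. The profiles of Oprd1 and Pnoc rest on 0 to 17 and 3 to 27 counts per library. Penk was followed most closely by Lrrtm2 (r = 0.982), Alkbh1 (0.969) and Pnck (0.967). Oprl1 was followed by Bmp1 (0.978), Jmjd8 (0.976) and Arxes1 (0.9749). For Oprm1 the closest were Dock4 (0.938), AK050117 (0.931) and 2610001J05Rik (0.922), and for Oprk1 they were Ppapdc2 (0.915), Trim62 (0.912) and P4hb (0.902). Mettl8 (0.948), Ttn (0.948) and BC051142 (0.941) came closest to Oprd1, and AU022252 (0.924), Fpgs (0.913) and Aqr (0.912) to Pnoc. None of these 18 genes was called between the genotypes by edgeR after adjustment.

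Of the markers measured beside the opioid genes, Adora2a, an adenosine receptor of enkephalin-expressing striatal neurons, averaged 27.5 ± 15.6 TPM in knockout and 11.3 ± 5.87 TPM in control libraries (SD, n = 4 each; log2 fold change 1.23, SE 0.39, edgeR adjusted p = 1.00). Drd2, the dopamine receptor of the same neurons, averaged 22.9 ± 12.2 TPM in knockout and 31.2 ± 10.2 TPM in control libraries. Both genes were chosen after their values were seen.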
